A study of Homo sapiens with 11 samples.

Results

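The 10 genes described here are products and brakes of the ERK pathway: the phosphatase genes DUSP4, DUSP5 and DUSP6, the Sprouty genes SPRY2 and SPRY4, the Sprouty-related genes SPRED1 and SPRED2, the transcription factor genes ETV4 and ETV5, and PHLDA1. They were taken by symbol from a table of 28152 gene symbols, and all 10 passed the filter on low counts, as did 16653 symbols in all. The rule is a list of names with no threshold on a measured value, but earlier results of these data were known when the list was made. RNA was sequenced from 11 xenograft tumours labelled BT474, an established line from a human breast cancer, given as HR+/Her2+. The cells were grown in the fourth mammary fat pad of female athymic nude mice, a host that lacks T cells made in a thymus but keeps other blood cells, and every animal carried an estradiol pellet (0.72 mg, made for 90 days). Tumours were eligible above 95 cubic millimetres. The 6 control libraries are from animals given vehicle (mannitol in water), and the 5 others from animals given Evexomostat (SDX-7320, spelled SDX-7230 in 1 label field), an inhibitor of methionine aminopeptidase 2, at 12 mpk as the titles write it, both under the skin every 4 days, and all samples carry the label day 33. All tumours derive from 1 line, and the labels do not say that each library came from a separate animal. The p-values of group differences below therefore weigh them against the spread between these libraries only. The comparison asks which transcripts differ between treated and vehicle tumours.

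Growth factor receptors activate RAS, which sets off the kinases RAF, MEK and ERK in turn. Active ERK induces transcription of genes whose products then restrain the same pathway: DUSP phosphatases remove phosphate from ERK, and Sprouty and SPRED proteins act above it, at the level of RAS and RAF activation. ETV4 and ETV5 belong to the PEA3 group of ETS factors and are among the genes that follow ERK activity. Transcripts of this group are therefore often read as a gauge of ERK output.

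The regulatory stretches upstream of 2 members are shown because they frame the results: SPRY4 had the largest fold change of the group, and DUSP6 the lowest level and the widest spread among vehicle tumours. Each is the 250 bases before the annotated start, from RefSeq on GRCh38.p14, matched by symbol. Capitals mark GGAA, the core that ETS factors recognise, on either strand (TTCC on the strand shown).
SPRY4, minus strand, chr5:142324248-142324497: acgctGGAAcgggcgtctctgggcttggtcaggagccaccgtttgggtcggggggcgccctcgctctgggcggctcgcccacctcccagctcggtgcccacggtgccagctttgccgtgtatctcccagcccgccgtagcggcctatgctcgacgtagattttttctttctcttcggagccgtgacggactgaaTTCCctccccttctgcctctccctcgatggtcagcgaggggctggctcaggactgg
DUSP6, minus strand, chr12:89352502-89352751: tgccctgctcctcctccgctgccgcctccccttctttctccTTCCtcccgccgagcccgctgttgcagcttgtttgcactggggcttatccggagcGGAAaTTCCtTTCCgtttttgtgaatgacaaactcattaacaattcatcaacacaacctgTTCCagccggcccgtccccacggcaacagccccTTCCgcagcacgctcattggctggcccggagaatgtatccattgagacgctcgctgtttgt
The SPRY4 stretch holds 2 such cores and the DUSP6 stretch 6. In windows of 300 bases (250 before and 50 after the start), SPRY4 had 4 and DUSP6 had 6, against a median of 3 over 35116 windows of that length, of which 95.5% hold at least 1. The table has windows for 6 of the 10 members, 9 windows in all. DUSP4, DUSP5, ETV4 and ETV5 have no entry. In these 9 windows the octamer TGAATGAA, bound by the repressor CIC that ERK inactivates, had 0 matches on either strand (1.65% of all windows hold it), as had the longer ETS site CCGGAAGT (4.14%) and the cyclic AMP response element TGACGTCA (1.85%). Only these exact letters were searched, so variants of the octamer and of the other sites were not counted. The 0 matches therefore do not show that a window, that of DUSP6 included, lacks a site for CIC. The AP-1 site TGANTCA, held by 7.71% of all windows, occurred in 1, at an alternative start of SPRED2.

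Library totals ranged from 22808033 to 39249329 counts. Of 16653 genes, 101 (0.606%) passed edgeR's quasi-likelihood test at a Benjamini-Hochberg adjusted p under 0.05, the threshold used throughout. Vehicle replicate 001 stood apart from the other libraries: the 100 most abundant genes took 23.9% of its reads (16.2% to 17.6% for the rest of the vehicle group), and its log2 CPM fell short for long transcripts, with a slope of -0.21 per doubling of transcript length. That slope was 0.03 to 0.06 for the remaining vehicle libraries and -0.04 to 0.04 under evexomostat. Ribosomal protein genes took 13.5% of its counts, 4.57% to 6.55% in the other vehicle libraries and 6.68% to 8.24% in the evexomostat libraries, a range that does not overlap either. The part of this in the results was not tested. Results are therefore given with and without it. The labelled cell type was only partly borne out by the luminal markers: of 10, ESR1, PGR, CDH1 and KRT19 averaged under 1 RPM (the deposited values), while KRT8 averaged 331.6, KRT18 148.6, GATA3 6.50, EPCAM 3.03 and FOXA1 1.05 RPM. ERBB2, which encodes HER2, was at 23.0 to 65.3 RPM and averaged 53.7 RPM, below EGFR at 152.7 RPM. That level does not by itself bear out the Her2+ of the label. VIM, a mesenchymal marker, averaged 1187 RPM. The tumours are therefore called by their label only.

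No ERK feedback gene passed the threshold, in either direction. Of the 10, 0 passed an adjusted p of 0.05 in edgeR, against 0.606% of all tested genes (0.174% higher and 0.432% lower), and 0 had an unadjusted p under 0.05, against 13.4% of all tested genes. The other tools, DESeq2, limma-voom (plain or quality-weighted) and limma on RPM, likewise called 0 of the 10. Fitted log2 fold changes were above 0 for 5 genes and below 0 for 5 (55.4% of all tested genes were below 0), with a median of -0.05, close to the median of -0.04 over all tested genes. Without vehicle replicate 001, 6 were below 0 and 4 above (50.4% of all tested genes were below 0), again with 0 of 10 past the threshold, against 5.22% of all tested genes (1.98% higher and 3.24% lower). Groups without overlap were seen in 0 of 10 with and without that library, against 2.97% and 8.35% of all tested genes. For 8 of the 10 the 95% interval lay within a 2-fold change in either direction, with and without vehicle replicate 001. For DUSP6 and SPRY4 the interval reached beyond a 2-fold fall. In whole tumours, fewer cells of a type and less RNA per cell cannot be told apart.

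**Figure D1:**
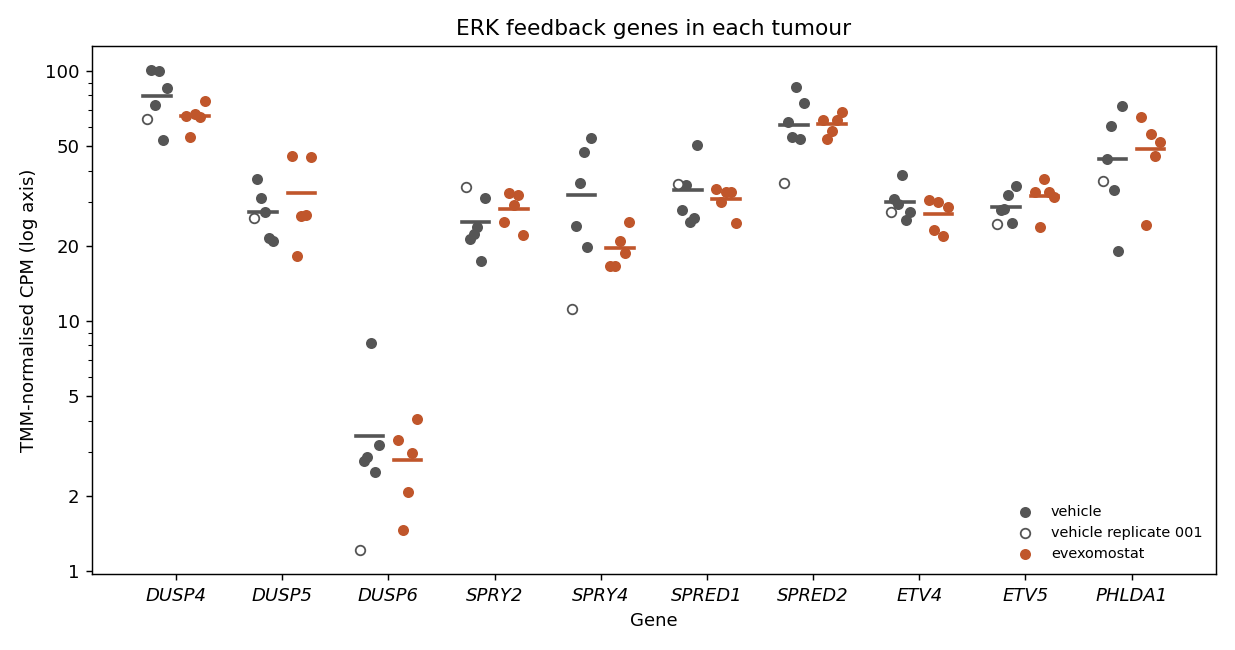
Level of each gene in each of the 11 tumours, in CPM on a log axis; points are libraries, horizontal bars are group means, and the open circle is vehicle replicate 001. The groups overlap in all 10 genes, and the vehicle points spread widest in DUSP6 (1.21 to 8.21 CPM) and SPRY4 (11.2 to 53.9 CPM).

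SPRY4 encodes a Sprouty protein that curbs signalling from receptor tyrosine kinases to RAS. Levels are given as CPM, TMM-normalised counts scaled to a common library total. Under vehicle it was at 11.2, 24.0, 35.5, 47.4, 19.9 and 53.9 CPM in replicates 001, 003, 004, 005, 006 and 007. Under evexomostat it was at 16.6, 16.6, 20.9, 18.8 and 24.9 CPM in replicates 002, 003, 004, 005 and 007. Vehicle replicates 004, 005 and 007 lay above every evexomostat library, replicate 001 lay below all of them, and replicates 003 and 006 lay among them. The means were 32.0 ± 16.6 CPM (SD, n = 6) and 19.6 ± 3.47 CPM (SD, n = 5). The fold change was 0.612 (95% interval 0.373 to 1.00), or -0.71 on the log2 scale (SE 0.33, edgeR unadjusted p 0.0510, adjusted p 0.376), the largest of the group and not past the threshold. Without vehicle replicate 001 it was 0.544 (95% interval 0.371 to 0.797), with an unadjusted p of 0.00453 and an adjusted p of 0.0628 in edgeR. SPRY4 was then the 1 member of 10 with an unadjusted p under 0.05, against 24.4% of all tested genes. On the 8 libraries whose replicate numbers occur in both groups, the log2 fold change was -0.99 with an adjusted p of 0.0458 in edgeR. These leave out vehicle replicates 001 and 006, the lowest of the vehicle group in SPRY4, and evexomostat replicate 002. On these libraries 733 of 16588 tested genes passed. With the replicate number as a block the log2 fold change of SPRY4 was -0.94 with an edgeR adjusted p of 0.0631, and 107 of 16588 passed.

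SPRY2, the other Sprouty gene, was at 17.3, 23.1 and 34.6 CPM under vehicle (lowest, median and highest of 6) and at 24.9, 32.6, 29.3, 32.0 and 22.2 CPM under evexomostat. Its highest vehicle library was replicate 001, the one in which SPRY4 was lowest. The fold change was 1.13 (95% interval 0.855 to 1.48, edgeR adjusted p 0.759), and 1.22 without that library (edgeR adjusted p 0.289). Vehicle replicate 001 lay above all treated tumours and replicates 003 and 006 below them, and neither Sprouty gene passed the threshold.

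The SPRED proteins bind neurofibromin, which switches RAS off, and bring it to the membrane. SPRED1 was at 25.0, 31.5 and 50.6 CPM under vehicle (lowest, median and highest) and at 33.7, 29.9, 32.9, 32.9 and 24.8 CPM under evexomostat. SPRED2 was at 35.8, 58.6 and 86.1 CPM under vehicle and at 63.6, 53.4, 57.7, 63.9 and 68.6 CPM under evexomostat. In SPRED1, 3 vehicle tumours lay above every treated one and 1 treated tumour lay below every vehicle one. All 5 evexomostat values of SPRED2 fell inside the vehicle range, and its 2 group means, 61.2 ± 17.6 (SD, n = 6) and 61.4 ± 5.93 CPM (SD, n = 5), were the closest of the group. Fold changes were 0.926 for SPRED1 (95% interval 0.705 to 1.22) and 1.00 for SPRED2 (95% interval 0.758 to 1.33). Neither passed the threshold, with edgeR adjusted p-values of 0.860 and 0.994.

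DUSP6 encodes a cytoplasmic phosphatase specific for ERK. It was the lowest of the group per kilobase of its longest coding transcript in GENCODE release 29, at 0.716 ± 0.425 CPM per kilobase over 11 tumours (SD), with 25 to 305 counts per library. It was at 1.21, 2.76, 2.86, 8.21, 2.50 and 3.20 CPM in vehicle replicates 001, 003, 004, 005, 006 and 007. It was at 3.35, 1.46, 2.07, 2.98 and 4.07 CPM under evexomostat. A single tumour, vehicle replicate 005, stood well above all others, and vehicle replicate 001 was the lowest. The fold change was 0.804 (95% interval 0.432 to 1.498, edgeR adjusted p 0.813). The direction rested on that 1 tumour, since without vehicle replicate 005 it was 0.15 on the log2 scale (adjusted p 0.891 in edgeR).

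DUSP4 and DUSP5 encode nuclear phosphatases, of which DUSP5 is specific for ERK. DUSP4 was at 52.8, 79.6 and 101.2 CPM under vehicle (lowest, median and highest) and at 66.4, 54.5, 67.3, 65.5 and 76.3 CPM under evexomostat. Vehicle replicates 003, 005 and 007 lay above all treated tumours, replicate 006 lay below them, and the fold change of 0.829 (95% interval 0.641 to 1.07, edgeR adjusted p 0.550) did not pass. DUSP5 was at 20.9, 26.6 and 36.9 CPM under vehicle and at 45.8, 18.1, 26.4, 26.7 and 45.2 CPM under evexomostat. Evexomostat replicates 002 and 007 exceeded every vehicle tumour while replicate 003 was the lowest of all 11. DUSP5 was 1 of 2 members whose coefficient of variation was larger under evexomostat, at 38.2% against 22.3%. Its fold change was 1.19 (95% interval 0.833 to 1.70, edgeR adjusted p 0.722). A related pseudogene, DUSP5P1, averaged 1.62 CPM, and reads that fit both could have been split between them.

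**Figure D2:**
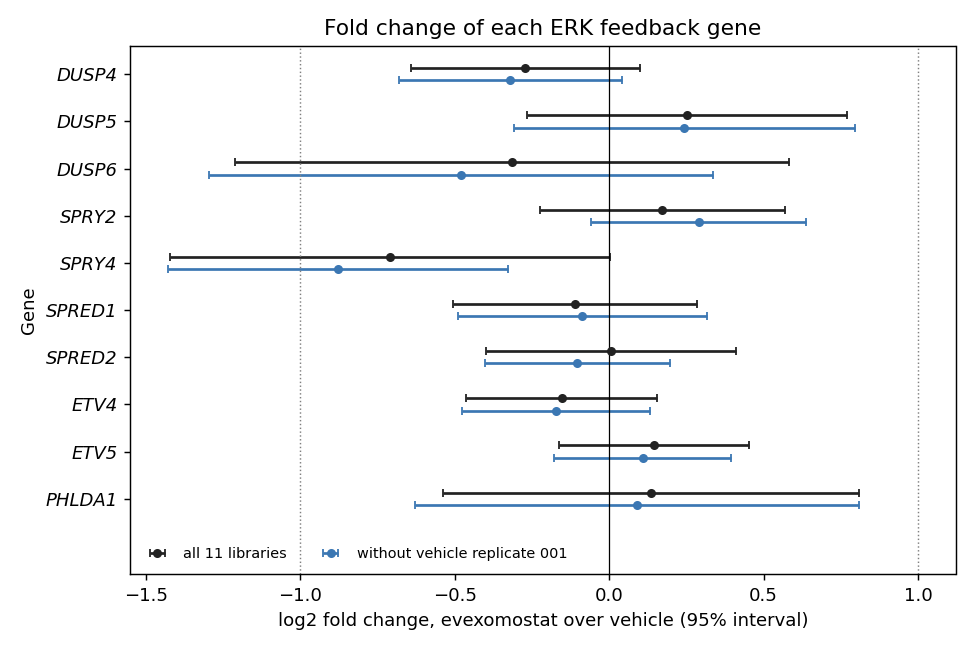
Log2 fold change of each gene, evexomostat over vehicle, from edgeR's fit across all tested genes, with 95% intervals; black is all 11 libraries, blue leaves out vehicle replicate 001, and dotted lines mark a 2-fold change. Only the SPRY4 interval without that library lies clear of 0, and the intervals of DUSP6 and SPRY4 extend past a 2-fold fall.

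The PEA3 factor genes had the narrowest vehicle spreads of the 10. ETV4 was at 25.5, 28.4 and 38.5 CPM under vehicle (lowest, median and highest) and at 30.5, 23.2, 29.96, 21.8 and 28.7 CPM under evexomostat. ETV5 was at 24.4, 27.9 and 34.6 CPM under vehicle and at 33.0, 23.8, 37.1, 33.0 and 31.3 CPM under evexomostat. Coefficients of variation were 14.1% to 15.5% in both genes and both groups. Fold changes were 0.899 for ETV4 (95% interval 0.726 to 1.11) and 1.11 for ETV5 (95% interval 0.895 to 1.37), with edgeR adjusted p-values of 0.715 and 0.731. Both intervals end short of a 1.5-fold change in either direction. In GENCODE release 29 an exon of ETV4 overlaps DHX8 on the other strand, and one of ETV5 overlaps DGKG on the same strand. The use of strand in counting is not given in the sources used here, and reads in those overlaps could belong to either gene.

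PHLDA1, whose protein has a pleckstrin homology-like domain and which is induced by ERK, was at 19.0, 40.5 and 72.3 CPM under vehicle (lowest, median and highest). Under evexomostat it was at 65.5, 24.2, 56.3, 45.7 and 52.0 CPM. The treated tumours all fell inside the vehicle range. The fold change was 1.10 (95% interval 0.689 to 1.75, edgeR adjusted p 0.904).

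Per kilobase of the longest coding transcript, SPRED2 (14.96 ± 3.17 CPM per kilobase, SD over 11 tumours) and DUSP4 (13.3 ± 2.95) were at the top, followed by ETV4 (11.7 ± 1.82), DUSP5 (11.6 ± 3.66) and SPRY2 (9.77 ± 2.08). ETV5 (7.29 ± 1.09), PHLDA1 (5.74 ± 2.10), SPRY4 (5.33 ± 2.75) and SPRED1 (4.14 ± 0.935) came next, and DUSP6 last. The ranges of neighbours in this order overlapped except for DUSP6, whose highest value, 1.87 CPM per kilobase, was below the lowest of all other members, 2.27 in SPRY4. With the median length of coding transcripts in place of the longest, SPRED2 was at 59.3 and ETV5 at 52.3 CPM per kilobase, and DUSP6 was again last at 2.08, so the upper order depends on the length used.

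Vehicle tumours varied more than treated ones in 8 of the 10 genes by coefficient of variation. This was also so for 80.8% of all tested genes, so the members' share was near the background. For SPRY4 the coefficient was 51.8% under vehicle (40.5% without replicate 001) and 17.7% under evexomostat. The difference in spread was not tested.

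No pair of related members had a correlation past an adjusted p of 0.05 over the 11 tumours. Over 6 pairs of paralogues, DUSP4 and DUSP6 had the highest Pearson r, 0.645 (permutation p 0.0327, adjusted over 6 pairs 0.196), with Spearman's rho at 0.591 (permutation p 0.0595, adjusted 0.197). Without the 2 tumours farthest from the median of DUSP4, vehicle replicates 003 and 005, r was 0.550 (exact permutation p 0.123), and within the 6 vehicle tumours it was 0.613 (exact permutation p 0.164). ETV4 and ETV5 had an r of 0.319 (permutation p 0.339, adjusted 0.508; rho 0.345, permutation p 0.297, adjusted 0.357). For SPRY2 and SPRY4 r was -0.247 (permutation p 0.464, adjusted 0.557; rho -0.436, permutation p 0.185, adjusted 0.278), and -0.025 without vehicle replicate 001 (permutation p 0.935). DUSP5 and DUSP6 had an r of 0.388 (permutation p 0.250, adjusted 0.506; rho 0.582, permutation p 0.0658, adjusted 0.197). DUSP4 and DUSP5 had an r of 0.377 (permutation p 0.253, adjusted 0.506; rho 0.482, permutation p 0.137, adjusted 0.274). SPRED1 and SPRED2 had an r of -0.118 (permutation p 0.688, adjusted 0.688; rho -0.200, permutation p 0.556, adjusted 0.556). Each of these was also computed without the 2 tumours farthest from the median of its first gene: r was then 0.631 for ETV4 and ETV5, -0.204 for the Sprouty pair, 0.290 for DUSP5 and DUSP6, 0.379 for DUSP4 and DUSP5, and -0.553 for the SPRED pair (exact permutation p 0.0604, 0.581, 0.452, 0.321 and 0.112). Within the 6 vehicle tumours r was 0.482 for ETV4 and ETV5, 0.531 for DUSP4 and DUSP5, and 0.067 for DUSP5 and DUSP6 (rho 0.029). There it was -0.075 for the Sprouty pair and -0.076 for the SPRED pair. In this order the exact permutation p of these r was 0.378, 0.275, 0.906, 0.889 and 0.797. The points share scaling, and the tests were two-sided.

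**Figure D3:**
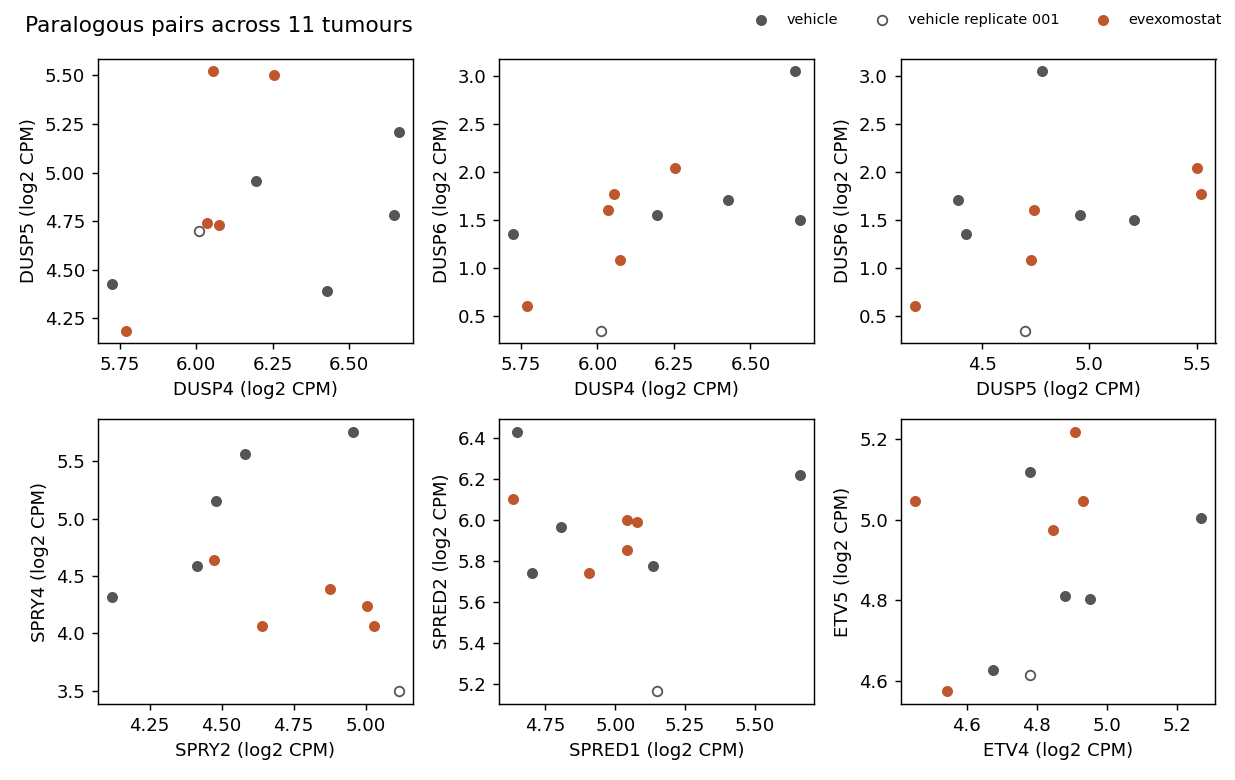
Log2 CPM of 6 pairs of related genes in 11 tumours, 1 panel a pair, with vehicle tumours in grey, evexomostat tumours in orange and vehicle replicate 001 as an open circle. DUSP4 and DUSP6 rise together in part (r 0.645), with vehicle replicate 005 high in both, and r is 0.667 without vehicle replicate 001. For SPRY2 and SPRY4 r is -0.247, and -0.025 without that library.

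The wider pathway was examined through 9 lists with 73 genes, of which 70 were tested (DUSP2, SPRY3 and IER3 did not pass the count filter). In edgeR 0 of the 70 passed an adjusted p of 0.05, against 0.606% of all tested genes, 4 had an unadjusted p under 0.05 with a higher level and 8 with a lower one, against 13.4% of all tested genes. DESeq2 called 2, ERF and FGFR2, against 649 of all 16653 tested genes. With sample quality weights limma-voom called 5 (those 2, DUSP16, GAB2 and RPS6KA1), against 1059 of 16653. Without weights limma-voom called 0, as did limma on RPM. The median log2 fold change of the 70 was -0.13, against -0.04 over all tested genes, and 46 of 70 were below 0, against 55.4% of all tested genes. Without vehicle replicate 001, 6 of the 70 passed in edgeR, against 5.22% of all tested genes: ERF was higher, and DUSP16, GAB2, MRAS, RPS6KA1 and FGFR2 were lower. The median of the 70 was then -0.16, against -0.0025 over all tested genes, 50 of 70 were below 0, against 50.4%, and 24 of 70 had an unadjusted p under 0.05, against 24.4%.

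Among receptors upstream, FGFR2, a fibroblast growth factor receptor, had the smallest p, at 36.9 ± 20.6 CPM under vehicle (SD, n = 6) and 14.3 ± 3.12 under evexomostat (SD, n = 5; log2 fold change -1.37, SE 0.36, edgeR adjusted p 0.105, and 0.0119 without vehicle replicate 001). Of 9 activators and adaptors between receptor and RAS, GAB2, a docking protein, had the smallest p (log2 fold change -0.71, SE 0.29, edgeR adjusted p 0.312, and 0.0233 without vehicle replicate 001). NRAS was that gene among the RAS GTPases (log2 fold change -0.24, edgeR adjusted p 0.403, and 0.243 without vehicle replicate 001). RASA1, which speeds hydrolysis of GTP on RAS, was it among 6 GTPase-activating genes (log2 fold change -0.36, edgeR adjusted p 0.680, and 0.0975 without vehicle replicate 001).

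In the kinase cascade, MAP2K1, which encodes MEK1, had the smallest p. It was at -0.47 on the log2 scale (SE 0.21, adjusted p 0.334 in edgeR, and 0.132 without vehicle replicate 001). Below ERK, the ETS repressor gene ERF, whose product ERK moves out of the nucleus, was at 55.2 ± 7.87 CPM under vehicle (SD, n = 6) and 78.3 ± 7.22 under evexomostat (SD, n = 5; log2 fold change 0.51, SE 0.13, edgeR adjusted p 0.0992, and 0.0177 without vehicle replicate 001). Its groups did not overlap, and of the 70 genes this held for 2 (ERF and FGFR3), against 2.97% of all tested genes and 0 of the 10 feedback genes. RPS6KA1, a kinase activated by ERK, was at -0.49 on the log2 scale (SE 0.21, adjusted p 0.315 in edgeR, and 0.0119 without vehicle replicate 001). It is named here, as are DUSP16, MRAS and FGFR3, after its values were seen.

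Among 12 tested output genes outside the group, EREG, a ligand of EGFR, had the smallest p. It was at 48.7 ± 60.6 CPM under vehicle (SD, n = 6) and 10.8 ± 6.85 under evexomostat (SD, n = 5). Its log2 fold change was -2.17 (SE 0.75, edgeR adjusted p 0.222, and 0.0781 without vehicle replicate 001). Of 7 other tested MAP kinase phosphatases, DUSP8 had the smallest p (log2 fold change 0.45, SE 0.16, edgeR adjusted p 0.240), and DUSP16, which acts on JNK and p38 kinases, was at -0.43 on the log2 scale (SE 0.18, adjusted p 0.310 in edgeR, and 0.0110 without vehicle replicate 001). SPRED3 was the gene with the smallest p among the remaining Sprouty, SPRED and PEA3 genes (log2 fold change 0.55, edgeR adjusted p 0.493, and 0.408 without vehicle replicate 001).

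**Figure D4:**
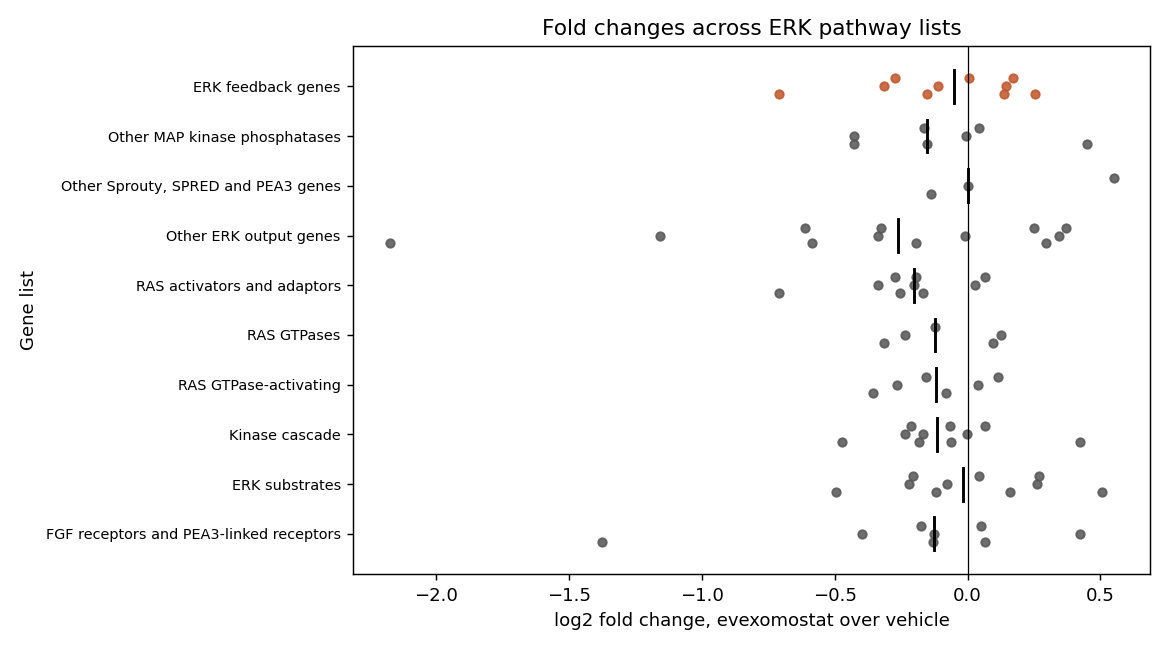
Log2 fold change, evexomostat over vehicle, of each tested gene in the ERK feedback group (orange) and in 9 other ERK pathway lists (grey), with a black bar at each median. The feedback genes lie between -0.71 and 0.25, with their median at -0.05, and the lowest points are EREG at -2.17 and FGFR2 at -1.37.

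Markers of other cells were examined beside these values. The host is mouse, the named builds are human, and the treatment of mouse reads is not given in the sources used here. Sums over human gene symbols therefore cannot tell human from mouse transcripts. Neither they nor the absence of calls show that the share of host cells was alike between groups. Mesenchymal markers summed to 2056 to 4283 CPM under vehicle and 2087 to 2884 under evexomostat, and luminal ones to 343.8 to 791.3 and 475.5 to 600.8, with 0 called in either. Among the mesenchymal markers FN1, which encodes fibronectin, was at 770.4 ± 528.3 CPM under vehicle (SD, n = 6) and 170.3 ± 42.7 under evexomostat (SD, n = 5), groups that did not overlap, with a log2 difference of -2.18 (SE 0.45, adjusted p 0.0503 in edgeR, just short of the threshold); it is named after its values were seen. Blood cell markers summed to 81.8 to 121.2 CPM under vehicle and 89.4 to 102.4 under evexomostat, and 0 of 6 passed the threshold. Fibroblast markers summed to 397.2 to 2057 and 494.3 to 1068 CPM, with 0 of 7 past the threshold. Endothelial markers summed to 10.5 to 22.4 and 9.92 to 14.04 CPM, and 0 of the 4 tested passed, with CDH5 and EMCN averaging 0.0124 and 0.0384 RPM. Skeletal muscle markers summed to 3.41 to 21.0 CPM under vehicle and to 4.53 to 429.9 under evexomostat, with the highest value in evexomostat replicate 005. Of 12 muscle genes 6 were tested and 0 passed, and 7 averaged under 1 RPM. Their part in the values above was not tested.

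In the authors' deposited table, SPRY4 also had the smallest p-value of the 10, with a log2 fold change of -0.63, a p-value of 0.0545 and an adjusted p-value of 0.613. The adjusted p-values of the other 9 in the authors' deposited table were 0.913 or more.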

How the data were processed

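Per the labels' protocols, total RNA of a frozen tumour portion was sequenced as paired-end reads of 150 bases. The submitters' processing notes name bcl2fastq 2.17, STAR 2.7.5c, featureCounts, edgeR and the builds GRCh37 and hg19; the annotation, strand setting and treatment of mouse reads are not given in the sources used here. The authors deposited whole-number counts per gene symbol, RPM values (each equal to the count share within 2e-13) and a comparison table with log2 fold changes and p-values per gene, whose group means and SDs are of the deposited RPM. Samples were grouped by their titles, 6 vehicle and 5 evexomostat.

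Counts were fitted with edgeR 4.0.16 in R 4.3.3 (TMM scaling, quasi-likelihood test, at least 10 counts in enough libraries and 15 in all, Benjamini-Hochberg over all 16653 genes); CPM are TMM-scaled. DESeq2 1.42.0, limma 3.58.1 (also on log2(RPM + 1) and log2(RPM + 0.1)), other scalings and filters, a replicate block and leaving out each library were alternatives. Correlations used log2 CPM and 100000 permutations, or all permutations for 9 or fewer tumours (SciPy 1.17.1, Python 3.11.15). The test was checked on simulated data with 200 changed genes. Each gene was given the spread between libraries that edgeR fitted for it. No simulated library was made to stand apart as vehicle replicate 001 did, so the rates that follow are those of the simulation. There edgeR recovered 55% of log2 fold changes of 1 and 89% of those of 2, in either direction, with 2.04% of its calls false. With the replicate block on 8 libraries it recovered 21% and 67%. DESeq2 recovered 70% and 92%, with 16.5% of its calls false. The members, lists and tests were chosen with earlier results of these data known. Named outside the 10 are, per list, the gene with the smallest p and any past the threshold, and the 3 genes most correlated with DUSP6. Transcript lengths are from GENCODE release 29. No 2 libraries agreed within counting noise (smallest chi-square per degree of freedom 15.5 over 55 pairs).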

Additional observations from a re-analysis of the deposited data

Results flagged for a closer look

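DUSP6 was at 8.21 CPM in vehicle replicate 005, far above the other 5 vehicle tumours, which lay between 1.21 and 3.20 CPM. The gap to the nearest of them was 0.716 of the group's whole range in CPM. In log2 CPM replicate 005 was at 3.05 and the other 5 at 0.35 to 1.71, and the flagging rule was not applied on that scale. In all 20 sets were examined (10 genes in 2 groups), each at its high and low end in 40 tests, and 1 was flagged. The nominal chance rate of the rule is about 1 in 20 and was not measured here. Without that tumour the log2 fold change of DUSP6 was 0.15.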

How the results depend on the processing

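Of the 10 genes, 0 passed the threshold under every alternative except edgeR on the 8 libraries with shared replicate numbers. There 1, SPRY4, did, and 733 of 16588 tested genes were called. DUSP4, SPRY2, SPRY4, ETV4 and ETV5 kept their direction in all 22 alternatives. Genes called over the whole table numbered 101, and 649 by DESeq2, 1059 with quality weights and 733 on those 8 libraries; leaving out 1 library gave 1 to 865, with 865 without vehicle replicate 001, 46, 52 and 56 without vehicle replicates 004, 003 and 007, and 1, 2, 3, 28 and 46 without evexomostat replicates 005, 002, 007, 004 and 003. Of the 70 other pathway genes, 0 were called, and 2 by DESeq2, 5 with quality weights, 8 on the 8 libraries and 0 to 6 when 1 library was left out. With the replicate block on 8 libraries 107 genes were called, and 8 of the 10 members were lower, as they also were without the block on the same libraries (5 in all 11). The median log2 fold change of all tested genes was 0.0050 with the block and -0.0065 without it. The share of all tested genes below 0 was not computed for these fits. These counts of lower members, and of pathway genes, were chosen after seeing the data. The labels do not say that the numbers pair tumours. After each gene's group mean was subtracted from log2 CPM, same-numbered libraries correlated at -0.27, 0.07, 0.05 and -0.10. Such values cannot decide whether the tumours are paired. Direction turned for DUSP5 (log2 fold change -0.056 with the replicate block, -0.0031 without it on those libraries), SPRED2 (-0.18, -0.19, and -0.015 with quality weights), PHLDA1 (-0.26 and -0.25) and SPRED1 (0.011 with quality weights, 0.019 and 0.020 on RPM). Leaving out 1 library gave -0.49 to 0.15 for DUSP6, -0.18 to 0.046 for SPRED1, -0.10 to 0.13 for SPRED2 and -0.020 to 0.33 for PHLDA1. For SPRY4, whose direction did not turn, it gave -0.88 to -0.50. The r of SPRED1 and SPRED2 was 0.038 without vehicle replicate 001. The cause was not tested. Higher calls were 28.7% of the total, 40.0% with upper-quartile scaling, and 58.1% and 55.9% on RPM with pseudocounts of 1 and 0.1, where the median of all genes was 0.08 and 0.10, against -0.04. Depth limits DUSP6 most, with 25 to 305 counts per library.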

Other observations

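Over the 11 tumours, the log2 CPM most like that of DUSP6 were those of MAPKAPK3, a kinase gene of the p38 branch, with a Pearson r of 0.956, ASB1 with 0.933 and TENM3 with 0.923. Without vehicle replicate 005, the tumour highest in DUSP6, r was 0.909, 0.877 and 0.901. These are descriptions over libraries that share scaling, chosen as the highest among all tested genes.

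SPRY4-IT1, a transcript from the SPRY4 locus named here after its values were seen, had 27, 22, 13, 21, 8 and 26 counts in the vehicle libraries and 7, 4, 4, 11 and 7 in the evexomostat libraries. Its mean was 0.670 ± 0.394 CPM (SD, n = 6) under vehicle and 0.221 ± 0.0863 CPM (SD, n = 5) under evexomostat. The log2 fold change was -1.54 (SE 0.44, edgeR adjusted p 0.143), and -1.25 without vehicle replicate 001 (edgeR adjusted p 0.0837). Its highest library was vehicle replicate 001, in which SPRY4 itself was lowest. Reads shared with SPRY4 could have been assigned to either.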
